A study of Mus musculus with 20 samples.

Results

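The heart was set against the carcass of the same Tdg null embryos to find the genes and loci at which 5-formylcytosine (5fC) differed between the tissues of one animal. The comparison holds 4 of the 20 libraries in the series, the hearts and carcasses of embryos i1 and i5, which come from the litters labelled pair_a and pair_b. The null allele has lost TDG's catalytic domain to a neomycin-resistance marker, and the embryos are homozygous offspring of heterozygous parents. Each was dissected at mid-gestation (E11.5) into hindbrain, heart, liver and carcass. The carcass is what was left of the embryo and so mixes trunk, limb, head and other tissues. The wild-type heart and carcass libraries used for reference are from embryos i6 and i9, one from each of the same litters, and the Tdg null hindbrain libraries and the i1 liver library served as further references. All values are positions of 5fC peaks, with no height or read count.

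5fC arises when TET enzymes oxidise 5-methylcytosine, and TDG is the glycosylase that excises it and starts its replacement by an unmodified cytosine. Without TDG activity 5fC stays in the DNA, so peaks in Tdg null tissue mark where oxidation has taken place. Tissue-specific enhancers, many of which lie in introns, are known sites of such oxidation. In bulk tissue, fewer cells carrying 5fC at a site and less 5fC per cell cannot be told apart.

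The libraries differed in extent. On the 19 autosomes, peaks covered 206 Mb in the i1 heart, 92.7 Mb in the i5 heart, 137 Mb in the i1 carcass and 192 Mb in the i5 carcass. The heart therefore had the wider coverage in i1 and the carcass in i5. Coverage of each gene body was scaled to the covered length of its library for every log2 difference and call. The percentages of gene bodies printed here are as deposited and not scaled, so in i5, where the heart list covers less than the carcass list, a scaled difference can favour heart where the 2 percentages are close. Read depth is unknown from these files. The wild-type libraries were far sparser, with 2.95 and 2.89 Mb in the hearts and 23.7 and 20.2 Mb in the carcasses. A peak list has no direct check of tissue identity. Of 8 cardiomyocyte markers, 7 had a peak in each heart and 7 and 6 in the carcasses, so that their number does not tell the tissues apart. Their pooled coverage (covered bases of all their bodies over the bodies' length, relative to the library's autosomal share) was 2.53 and 3.30 in the hearts against 0.518 and 0.654 in the carcasses. Long genes weigh most in this measure, and Nkx2-5 was listed at 0 in all 4 libraries. Pooled coverage was also higher in heart in both embryos for endothelial, erythroid, skeletal muscle and hepatocyte markers (hepatocyte 1.40 and 0.888 against 0.724 and 0.669). It was higher in carcass for epicardial, cartilage, neuron, epidermal and limb and face markers. The measure therefore does not identify a tissue by itself.

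The intronic windows below show what lay under these peaks. Each is the central 200 bases of a stretch seen in both libraries of a tissue and in neither library of the other, read from the + strand of NCBIM37 with CpG dinucleotides, the usual place of cytosine methylation in mammals, in capitals. The heart windows come from Myh7 (chr14:55612651-55612850), Gata4 (chr14:63855801-63856000) and Jph2 (chr2:163201051-163201250), and the carcass windows from Chat (chr14:33223201-33223400), Ncam2 (chr16:81204351-81204550) and Tmem132e (chr11:82229551-82229750). Myh7, Gata4, Chat, Ncam2 and Tmem132e are among the 3 leading genes of either direction, and Jph2 holds the longest heart-only stretch.
Myh7: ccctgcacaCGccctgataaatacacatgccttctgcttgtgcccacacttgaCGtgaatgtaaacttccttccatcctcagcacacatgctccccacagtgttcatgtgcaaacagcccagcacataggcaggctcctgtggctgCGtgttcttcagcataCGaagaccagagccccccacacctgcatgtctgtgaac
Gata4: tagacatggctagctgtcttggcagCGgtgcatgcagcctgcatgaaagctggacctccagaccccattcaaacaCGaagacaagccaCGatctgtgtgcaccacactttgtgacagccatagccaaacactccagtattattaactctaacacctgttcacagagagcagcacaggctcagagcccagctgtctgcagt
Jph2: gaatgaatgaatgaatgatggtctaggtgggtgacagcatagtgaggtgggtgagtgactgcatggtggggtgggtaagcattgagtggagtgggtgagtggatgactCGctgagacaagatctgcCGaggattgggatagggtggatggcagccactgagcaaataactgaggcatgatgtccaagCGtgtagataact
Chat: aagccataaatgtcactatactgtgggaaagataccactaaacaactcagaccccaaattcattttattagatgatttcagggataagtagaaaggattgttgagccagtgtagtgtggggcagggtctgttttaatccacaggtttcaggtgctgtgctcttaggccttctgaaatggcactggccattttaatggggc
Ncam2: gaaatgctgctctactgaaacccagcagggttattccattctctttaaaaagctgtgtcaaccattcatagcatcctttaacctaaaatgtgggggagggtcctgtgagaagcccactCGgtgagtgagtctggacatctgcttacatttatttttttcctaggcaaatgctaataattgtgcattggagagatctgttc
Tmem132e: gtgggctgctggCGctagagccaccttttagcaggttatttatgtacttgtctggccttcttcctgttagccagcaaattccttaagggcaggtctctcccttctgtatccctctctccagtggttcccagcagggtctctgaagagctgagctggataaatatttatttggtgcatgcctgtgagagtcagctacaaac
The windows held 4, 3, 3, 0, 1 and 1 CpGs in this order. They are examples and not a contrast: where the window of a gene's longest stretch held exon bases, the longest stretch with a window free of exons was used, the window of Thap4, the third heart gene, is not printed and held 1 CpG, and over all stretches of the kind the averages were close, as given further on.

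Across 9549 autosomal protein-coding genes with enough coverage to test, of 21418 annotated, 1926 had more 5fC coverage in heart (20.2%) and 526 in carcass (5.51%). The calls required an adjusted p under 0.05 in limma with embryo as a block, and at least a 2-fold difference in the same direction in both embryos. The median tested gene was shifted by 0.46 on the log2 scale towards heart, 0.39 in i1 and 0.53 in i5. Tested genes longer than 300 kb went the other way, with a median of -0.63. With each library centred on its median gene the calls became 932 higher in heart and 1103 higher in carcass, so the split between directions is a matter of scaling, while no called gene changed direction. With no scaling of coverage there were 0 calls in each direction, and 954 and 317 genes passed the 2-fold rule alone. Only 2 embryos and 1 residual degree of freedom stand behind each gene, and the p-values rest on a spread pooled across genes. Single libraries mattered: the calls fell to 259 in heart and 55 in carcass without the i5 heart, to 921 in heart without the i1 heart, to 936 in heart and 222 in carcass without the i1 carcass, and to 313 in carcass without the i5 carcass.

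**Figure D1:**
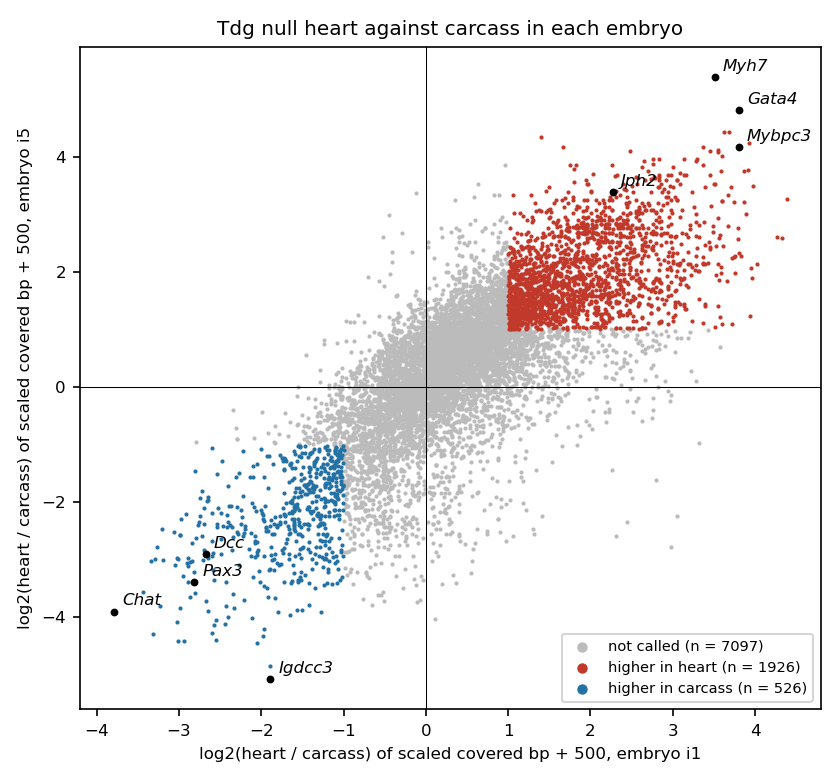
Each point is 1 of 9549 genes, with the log2 ratio of heart to carcass coverage (scaled covered bp + 500) in embryo i1 on the x axis and in embryo i5 on the y axis; colours give the calls. Myh7 and Gata4 lie at the upper right, Chat and Pax3 at the lower left, and 1926 and 526 genes passed the rule in the 2 corners.

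Genes picked in a single embryo mostly went the same way in the other. Only the 9261 tested genes with a peak in both tissues were used for this comparison, which was added after the data were seen, since the direction of the 288 others was fixed by the minimum coverage. Of 2328 genes at least 2-fold higher in heart in i1, 73.5% were also at least 2-fold higher in heart in i5, against 30.8% of all 9261. Of 646 genes at least 2-fold higher in carcass in i1, 76.3% were so in i5, against 13.5% of all. Read the other way, 60.0% of 2854 heart genes and 39.3% of 1254 carcass genes of i5 were at least 2-fold apart in i1, against 25.1% and 6.97% of all.

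Myh7 had the largest fitted difference towards heart with 500 bp added, 4.45 on the log2 scale, but with 2000 bp added Gata4 (3.51) was above Myh7 (2.98), so the order of the leading genes depends on this constant. Myh7, which encodes the beta myosin heavy chain, had 71.2% of its 23.9 kb body under peaks in the i1 heart and 50.4% in the i5 heart, against 2.51% in the i1 carcass and 0% in the i5 carcass. Its coverage was 3.51 and 5.39 higher on the log2 scale in i1 and i5 (mean 4.45, SE 0.41, limma adjusted p = 2.96e-19). Its neighbour Myh6, the alpha myosin heavy chain, had 64.2% and 33.2% in the hearts and 4.80% and 2.40% in the carcasses. These 2 genes are near-identical in parts and adjacent, so that reads may have been shared between them. Mybpc3, the cardiac myosin-binding protein C, had 46.1% and 27.2% of its body covered in the hearts and was listed at 0 in both carcasses. The heart libraries lay above the carcass libraries at all 3 genes with no overlap. These genes were named because they were called in the same 4 libraries, so nothing is read from this.

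Gata4 encodes a zinc-finger factor needed for heart formation. Peaks covered 52.1% and 37.1% of its 72.8 kb body in the hearts and 1.92% in each carcass, a mean difference of 4.31 on the log2 scale (SE 0.31, adjusted p = 5.18e-28). The carcass coverage came from a single stretch in the middle of the gene, present in both embryos and also covered in the hearts. Its body held 17 heart-only stretches of at least 500 bp. The same gene had 18.8% under peaks in the i1 liver and 1.65% to 2.47% in the hindbrains.

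**Figure D2:**
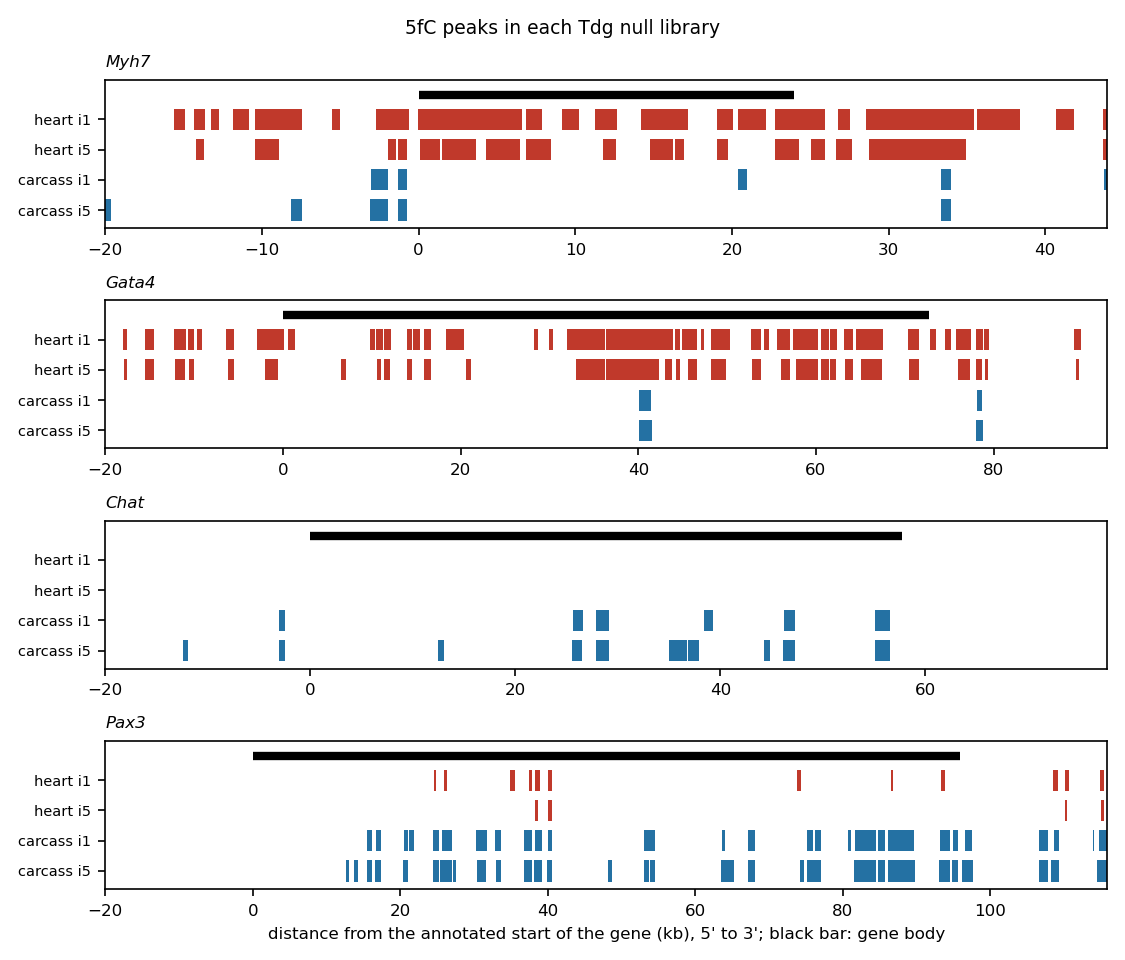
Peaks of the 4 Tdg null libraries along Myh7, Gata4, Chat and Pax3, drawn as bars by distance in kb from the annotated start of the gene, with the gene body in black and 20 kb on each side. Heart peaks fill most of Myh7 and recur at the same places in both embryos, Chat has peaks in the carcasses alone, and Pax3 has few heart peaks beside many carcass peaks.

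The other genes among the 12 largest heart differences were not all muscle genes. Adprhl1, an ADP-ribosylhydrolase-like gene, had 49.8% and 41.4% of its body covered in the hearts against 0% and 3.24% in the carcasses. Ptrf, which encodes the caveolar coat protein cavin-1, had 55.1% and 43.1% in the hearts and was listed at 0 in both carcasses. Thap4 (18.8% and 10.7% in the hearts), the nucleoporin gene Nup214 (9.30% and 7.67%), Mccc1, a subunit of the carboxylase of leucine breakdown (16.9% and 11.4%), the phosphatidylinositol transfer protein gene Pitpna (21.9% and 9.09%) and the scaffold gene Iqgap3 (18.6% and 11.5%) were likewise listed at 0 in both carcasses. For such genes no fold is given, since their fitted difference depends on the 500 bp added before the logarithm. Csnk1d, a casein kinase gene, had 22.6% and 15.3% against 0.0669% in each carcass, and Rrbp1, a gene of the rough endoplasmic reticulum, had 20.5% and 12.8% against 0% and 1.88%. In all, 247 tested genes had no peak base in either carcass, and all 247 were called in heart. Such genes passed the minimum coverage through the hearts alone, which fixed their direction, so nothing is read from this count.

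**Figure D3:**
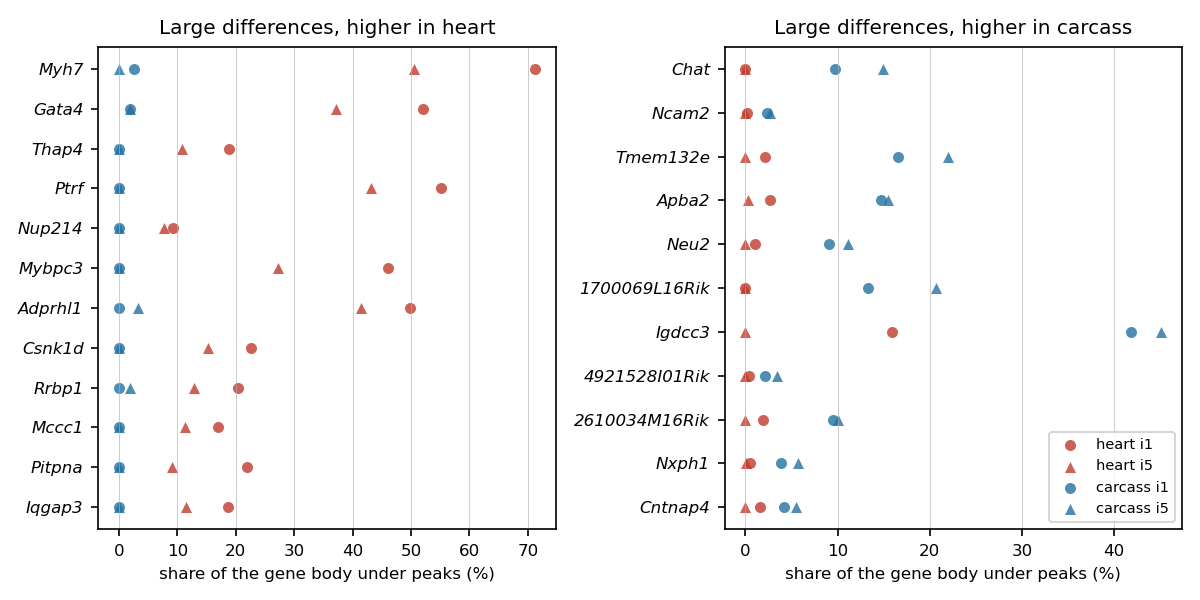
Share of the gene body under peaks in percent for the genes among the 12 largest differences in each direction that are reported here; red symbols are hearts, blue are carcasses, circles embryo i1 and triangles embryo i5. Heart and carcass symbols do not overlap for any gene shown, with the narrowest relative gap at Igdcc3 in i1. The genes were chosen for their differences in these libraries, so nothing is read from the lack of overlap.

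Among 15 tested cardiac transcription factors, 9 were called higher in heart and 0 in carcass, beside 20.2% and 5.51% of all genes tested, the shares against which each list count here is to be read, and the list's median difference was 1.60 on the log2 scale beside 0.46 for all genes tested. Gata6 had 45.0% and 26.6% in the hearts against 2.11% and 11.2% in the carcasses. Tbx20, a T-box factor of heart development, had 29.2% and 11.9% against 1.96% and 2.94%, and Mef2a, a muscle transcription factor, 7.27% and 4.30% against 0.353% and 1.76%. Gata5, Tbx5, Mef2d, Myocd and Smyd1 were the other called members. Gata5 was listed at 0 in both carcasses and so passed the minimum coverage through the hearts alone. Without such genes 8 of 14 were called in heart, beside 18.1% of all. With median centring, under which 932 and 1103 of all genes were called in heart and carcass, the list gave 7 and 1. Mef2c did not pass, with 21.0% and 9.04% in the hearts and 10.5% and 15.0% in the carcasses, and Srf had 16.1% and 0% against 20.4% and 22.5%. Nkx2-5, Hand1, Hand2, Tbx2, Irx4, Hey1 and Foxc1 were among those that had too little coverage to test.

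Of 30 tested sarcomere genes, most of which build the contractile unit of muscle, 16 were called higher in heart and 0 in carcass, beside 20.2% and 5.51% of all genes, with a median of 1.59. Myocd, a transcriptional coactivator and not a part of the sarcomere, is on this list as well as the one before and is counted among the calls of both. Without Mybpc3, at 0 in both carcasses, 15 of 29 were called in heart, and with median centring 12 were called in heart and 1 in carcass. Ldb3, a Z-disc protein, had 50.0% and 22.1% in the hearts against 2.26% and 7.58% in the carcasses. Tnni3, the cardiac inhibitory troponin, had 75.9% and 65.8% in the hearts against 0% and 13.5%, Actc1, cardiac actin, had 76.1% and 46.0% against 7.98% and 12.8%, and Tnnt2, cardiac troponin T, had 59.6% and 49.9% against 6.47% and 13.9%. Ttn, the giant spring protein titin, had 18.02% and 8.72% against 2.44% and 5.92%. Nebl and Xirp2 were the 2 members with the higher value in carcass in both embryos, and neither was called.

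Of 23 tested genes of calcium handling and conduction, 4 were called higher in heart and 1 in carcass, shares near the 20.2% and 5.51% of all genes, with a median of 0.78. With median centring they were 3 and 2. Jph2, which holds the membrane junctions between T-tubules and the calcium store, had 72.5% and 55.6% of its body covered in the hearts against 9.44% and 10.1% in the carcasses. Atp2a2, the calcium pump of the sarcoplasmic reticulum, had 27.5% and 11.2% against 2.88% and 4.73%. Ryr2, the calcium release channel, spans 553.8 kb and had 16.2% and 9.55% against 2.60% and 4.48%, with 39 heart-only stretches and 8 carcass-only stretches inside it. Kcnj5, a potassium channel of atrial cells, had 34.7% and 13.2% against 6.79% and 9.17%. The member called in carcass was Cacna2d1, a calcium channel subunit, with 4.66% and 2.05% in the hearts against 6.71% and 10.6%.

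Of 20 tested endothelial and endocardial genes, 2 were called in heart and 0 in carcass, below the 20.2% of all genes called in heart, with a median of 0.59. Eng had 57.9% and 29.9% against 16.9% and 26.6%, and Flt1, a VEGF receptor, had 29.6% and 17.4% against 9.12% and 17.0%. The scaled differences were 1.14 and 1.17 on the log2 scale in i1 and i5 for Eng and 1.09 and 1.07 for Flt1. With each library centred on its median gene, 0 endothelial genes were called. Of 7 epicardial genes, Sema3d was the only one called, and it was higher in carcass, with 4.32% and 1.65% in the hearts against 8.36% and 13.3%; with median centring 2 were called in carcass. Of 5 smooth muscle genes, Tagln (35.8% and 32.7% against 0% and 13.99%) and Acta2 (24.2% and 18.4% against 3.51% and 14.2%), both also active in the early heart muscle, were called in heart. Both lost the call with quantile normalization (adjusted p = 0.0786 and 0.176), and Acta2 also with median centring (adjusted p = 0.134), which left 1 call in each direction in this list.

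Of 7 erythroid genes 3 were called in heart and 0 in carcass, with a median of 0.73, beside 20.2% of all genes called in heart. With median centring 1 was called in heart, Hemgn, and the median was 0.24. Slc4a1 lost its call there (limma adjusted p = 0.0598) and with quantile normalization (adjusted p = 0.0627). Ank1 kept its adjusted p with median centring but fell under the 2-fold rule, at 0.90 on the log2 scale. Slc4a1, the anion exchanger of red cells, had 22.8% and 13.02% in the hearts against 2.88% and 6.33%, and Ank1 had 31.0% and 21.1% against 9.11% and 14.1%. Hemgn had 9.22% and 10.3% in the hearts and was listed at 0 in both carcasses, which fixed its direction. Without it 2 of 6 were called in heart, with a median of 0.54. Pooled relative coverage of the erythroid markers, of which 3 of 4 matched had a peak in each library and Klf1 was listed at 0 in all 4, was 3.25 and 4.87 in the hearts against 1.41 and 1.57 in the carcasses. The part that blood cells play in the heart values was not tested.

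Towards carcass, Chat had the largest fitted difference with 500 bp added, and Apba2 was beyond it with 2000 bp added (-3.07 on the log2 scale). Chat, which makes acetylcholine in motor neurons, had 9.70% and 14.9% of its 57.7 kb body under peaks in the i1 and i5 carcasses and was listed at 0 in both hearts. Tmem132e had 16.5% and 21.9% in the carcasses against 2.09% and 0% in the hearts. Apba2, a neuronal adaptor protein, had 14.7% and 15.5% against 2.66% and 0.238%, a mean difference of -3.68 on the log2 scale (SE 0.29, adjusted p = 1.96e-24), with 28 carcass-only stretches in its body. The adhesion genes Ncam2 (2.34% and 2.72% against 0.213% and 0%) and Cntnap4 (4.19% and 5.47% against 1.54% and 0%) and the neurexin ligand gene Nxph1 (3.83% and 5.72% against 0.532% and 0.0998%) are long and sparsely covered. Igdcc3, an immunoglobulin superfamily gene, had the highest carcass coverage of the genes named from the 12 largest carcass differences, 41.8% and 45.1%, and differed between the hearts, with 15.9% in i1 and 0% in i5. The sialidase gene Neu2 (9.10% and 11.1% against 1.02% and 0%) and the genes 2610034M16Rik (9.51% and 10.04% against 1.87% and 0%) and 4921528I01Rik (2.11% and 3.44% against 0.388% and 0%) were also among the 12, as was 1700069L16Rik, which had 13.3% and 20.7% in the carcasses and was listed at 0 in both hearts. All 41 tested genes with no peak base in either heart were called in carcass, having passed the minimum coverage through the carcasses alone, and nothing is read from this count either.

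Of 13 tested neural genes, 8 were called in carcass and 0 in heart, beside 5.51% and 20.2% of all genes, with a median of -1.60. With median centring 11 were called in carcass. Dcc, the netrin receptor of growing axons, had 6.77% and 8.50% in the carcasses against 1.54% and 0.522% in the hearts, and 62 carcass-only stretches against 1 heart-only stretch. Robo2, a receptor for Slit, had 10.3% and 13.9% against 4.33% and 1.19%. Cntnap2, over 2.24 Mb, had 1.69% and 2.45% against 0.527% and 0.192%. All 7 neural genes longer than 300 kb were called in carcass, as was 1 of 6 shorter ones. Gene length moved with the calls in general. Of 499 tested genes longer than 300 kb, 23.9% were called in carcass and 1.002% in heart, while of 2736 genes of 10 to 30 kb 3.95% were called in carcass and 24.2% in heart. The part of length in the neural values was not tested. The median called gene was 35.2 kb in heart and 90.3 kb in carcass.

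Of 13 tested genes of skeletal muscle and its precursors, 3 were called in carcass and 0 in heart, beside 5.51% and 20.2% of all genes, and 10 were not called, with a median of -0.57. With median centring 4 were called in carcass. Pax3, a factor of muscle progenitors, the dorsal neural tube and neural crest, had 24.8% and 28.9% in the carcasses against 4.69% and 1.04% in the hearts (mean difference -3.11, SE 0.30, adjusted p = 1.96e-17). Pax7, its paralog, had 16.6% and 17.9% against 5.29% and 2.70%, and Eya1 had 13.6% and 19.5% against 6.44% and 1.49%. All 3 were also covered in the Tdg null hindbrains. Relative to library coverage the hindbrains had 2.28 to 3.09 at Pax3, against 4.34 and 3.61 in the carcasses. At Pax7 they had 2.88 to 3.54 against 2.90 and 2.24, and at Eya1 1.89 to 2.27 against 2.375 and 2.43. The part of neural tissue in these carcass values was not tested. Myf5 was densely covered in all 4 libraries, with 43.4% and 34.1% in the hearts and 74.1% in each carcass, and was not called.

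Of 12 tested limb and face genes, Meox2 (3.82% and 8.33% in the carcasses against 1.91% and 0%) and Tbx15 (2.90% and 8.25% against 1.58% and 1.14%) were called in carcass and 0 in heart, beside 5.51% and 20.2% of all genes, with a list median of -0.67. With median centring 4 were called in carcass and the median was -1.16. Of 11 cartilage, bone and connective tissue genes, Col1a2, a chain of type I collagen, was called in carcass (7.90% and 10.9% against 2.995% and 0.817%), and Comp, a matrix protein, in heart (22.3% and 17.6% against 0% and 2.35%), a call lost with quantile normalization (adjusted p = 0.0948); 1 call in each direction is to be read beside the same shares of all genes, and with median centring there were 1 in heart and 2 in carcass. A single Hox gene of 38 with a unique match had enough coverage to test. This was Hoxb3, with 15.8% and 24.8% in the carcasses against 2.14% and 0% in the hearts, and it was listed at 0 in all 4 hindbrains. The 5 epidermal genes gave no call, and with median centring 1 was called in carcass. Grhl3, the most covered of them, had 63.6% and 40.3% in the hearts against 25.2% and 42.5%, scaled differences of 0.72 and 0.94 on the log2 scale.

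Genes of other organs gave single calls. In the kidney and gut list, Pax2 was called in carcass (14.4% and 17.6% against 7.30% and 3.65%) and Gata3 in heart (8.19% and 5.16% against 0% and 3.34%), which lost its call with quantile normalization (adjusted p = 0.0653) and with median centring (adjusted p = 0.0753). In the hepatocyte list, Cps1, a urea cycle enzyme, was called in carcass (4.99% and 8.13% against 2.86% and 1.02%). Among the genes of the machinery that writes, oxidises and removes cytosine methylation, of 10 tested, Dnmt3l was called in carcass (11.5% and 15.7% against 3.23% and 0%) and 0 in heart. Tdg itself had 12.4% and 8.11% of its annotated body under peaks in the hearts and 4.29% and 7.63% in the carcasses, and was not called.

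**Figure D4:**
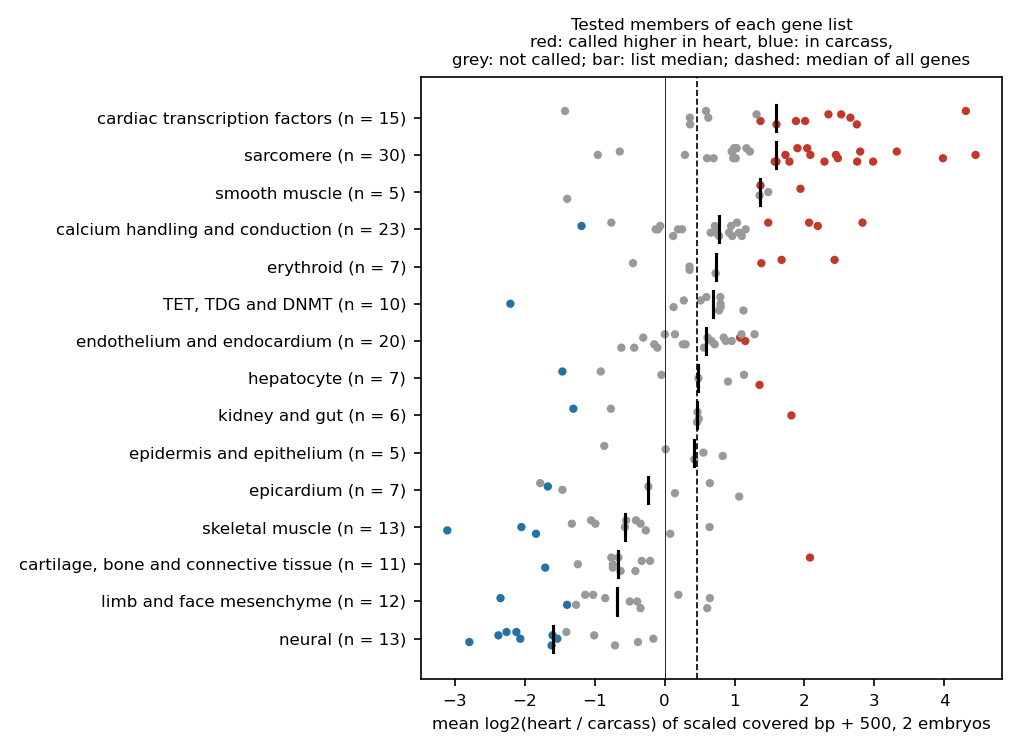
Mean log2 ratio of heart to carcass coverage for each tested member of 15 gene lists with at least 5 tested members, with called members in colour, the list median as a black bar and the median of all genes tested, 0.46, as a dashed line. The medians of cardiac transcription factors and sarcomere genes, 1.60 and 1.59, lie to the right of the dashed line, with some members on its left, and that of neural genes, -1.60, to the left.

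Loci were then taken without regard to genes. There were 41731 autosomal stretches of at least 500 bp under peaks of both hearts and no carcass peak (30.2 Mb), 49744 under both carcasses and no heart peak (37.9 Mb), and 36911 under all 4 libraries (30.1 Mb). Heart-only stretches lay nearer to genes: their middle was in an intron in 54.2%, in an exon in 9.23% and outside genes in 34.0%, against 42.6%, 4.45% and 51.3% for carcass-only stretches and 37.3%, 3.53% and 57.2% for positions sampled every 5000 bp of the genome. Their median distance to a transcription start of a protein-coding gene was 18.9 kb, against 54.7 kb for carcass-only and 27.1 kb for shared stretches. The central 300 bases held 5.49 CpGs on average in heart-only, 5.07 in carcass-only and 6.59 in shared stretches, against 2.54 in the sampled genome, and the median GC content was 49.0%, 45.7%, 49.7% and 41.7%. These are descriptions of loci selected by their peaks, and no test was made.

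The longest heart-only stretch, 4900 bp, lay in an intron of Jph2 (chr2:163198701-163203600), and its central window is printed above. The next were 3800 bp in an intron of Uggt1 (chr1:36216401-36220200), a gene of glycoprotein folding, 3700 bp in an intron of Afap1l1 (chr18:61941001-61944700) and 3600 bp in an intron of Sorbs2 (chr8:46733301-46736900), which encodes a Z-disc and adhesion adaptor. The longest carcass-only stretch, 4500 bp on chromosome 8 (chr8:19891101-19895600), overlapped no protein-coding gene and was centred within 1000 bp upstream of a non-coding transcript. The nearest start of a protein-coding gene, Gm15319, was 65.4 kb away. It was followed by 3900 bp in an intron of the glycine receptor gene Glra1 (chr11:55416801-55420700), 3600 bp between genes 230 kb from the start of Prdm2 (chr4:142571001-142574600) and 3500 bp in an intron of Ass1 (chr2:31348501-31352000). Within the leading genes, the longest stretch was 2200 bp in Myh7 (chr14:55609801-55612000), 3200 bp in Gata4 (chr14:63854301-63857500), 1100 bp in Thap4 (chr1:95617501-95618600), 1400 bp in Chat (chr14:33222601-33224000), 3100 bp in Ncam2 (chr16:81202901-81206000) and 1000 bp in Tmem132e (chr11:82258201-82259200). The stretch in Tmem132e was centred on an exon with 14 CpGs in 300 bases, and the others were centred in introns. All placements in introns, exons or between genes in this paragraph are read at the middle of a stretch, which may also hold other features.

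Short letter patterns of known developmental factors were counted in the central 300 bases on both strands. AGATAA, the core that GATA factors bind, was present in 29.4% of heart-only, 13.3% of carcass-only and 19.0% of shared stretches, and in 19.2% of sampled genomic windows. The pattern of MEF2 factors, taken as CTA and TAG with any 4 bases between them, was present in 6.28%, 3.18%, 4.03% and 5.17%. AGGTGT, the core bound by T-box factors, was present in 15.8%, 12.3%, 12.7% and 14.7%. TAATTA, a core of many homeodomain proteins, had the reverse order, with 3.56% of heart-only and 12.8% of carcass-only stretches beside 6.55% of shared and 10.5% of sampled windows. CANNTG, the E-box of basic helix-loop-helix factors, was in 82.2%, 86.4%, 84.2% and 80.0%. Base composition differs between these sets, as given above, and its part in the shares was not tested. The Jph2 window printed above holds AGATAA once, and the other 5 windows do not hold it.

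Along the called genes, coverage was spread over the body. In 1878 heart genes of at least 5 kb, the mean share under peaks in the i1 heart was 24.2% in the first of 10 equal parts of the body and 22.4% in the last, with a low of 20.2% between, and 13.6% in the 5 kb upstream. The i5 heart had 13.95% and 13.4%, and 6.47% upstream. In the carcasses the same genes had their highest body value in the first part, 5.17% in i1 and 8.73% in i5, and 2.66% and 4.62% in the eighth. In 521 carcass genes the i1 carcass had 10.6% in the first and 12.7% in the last part, and the i5 carcass 13.3% and 16.3%.

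The called genes were then read in libraries that played no role in their choice. The bodies of the 1926 heart genes make up 3.82% of the autosomes. They held 8.21% and 10.7% of the covered bases in the Tdg null hearts and 2.30% and 2.70% in the carcasses, as the choice required. In the wild-type hearts they held 4.92% and 4.56%, against 2.62% and 2.34% in the wild-type carcasses. The bodies of the 526 carcass genes, 4.72% of the autosomes, held 2.69% and 1.95% in the wild-type hearts and 3.90% and 3.91% in the wild-type carcasses. The heart and carcass libraries did not overlap in either case, and no test was made on 2 libraries against 2. Most single genes did not show this order in the wild-type libraries. Of the 1926 heart genes, 414 had any peak in a wild-type heart and 851 in a wild-type carcass, and Myh7 and Gata4 had none in a wild-type heart. Of the 983 heart genes with a peak in any wild-type library, 69 had both hearts above both carcasses in coverage relative to the library (7.02%) and 252 had the reverse (25.6%), beside 6.35% and 38.9% of 6383 such genes among all tested. Of 422 such carcass genes, 14 had both hearts above and 206 both carcasses (48.8%). In the hindbrains the heart genes held 3.36% to 3.72% and the carcass genes 4.04% to 5.08%. The i1 liver held 5.82% and 2.48%, on the side of the heart.

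The stretches were read in the same libraries, as shares that are not scaled to the extent of a library. Wild-type hearts had a peak in 1.80% and 1.23% of the heart-only stretches and in 0.159% and 0.376% of the carcass-only stretches. Wild-type carcasses had a peak in 2.48% and 2.2% of the heart-only and in 12.7% and 11.6% of the carcass-only stretches. At heart-only stretches the wild-type carcasses thus had more peaks than the wild-type hearts. Tdg null hindbrains had a peak in 5.63% to 9.14% of heart-only and in 40.7% to 51.6% of carcass-only stretches, and the i1 liver in 29.2% and 11.3%. Stretches shared by all 4 libraries had a peak in 58.4% to 67.0% in the hindbrains and 64.5% in the liver.

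**Figure D5:**
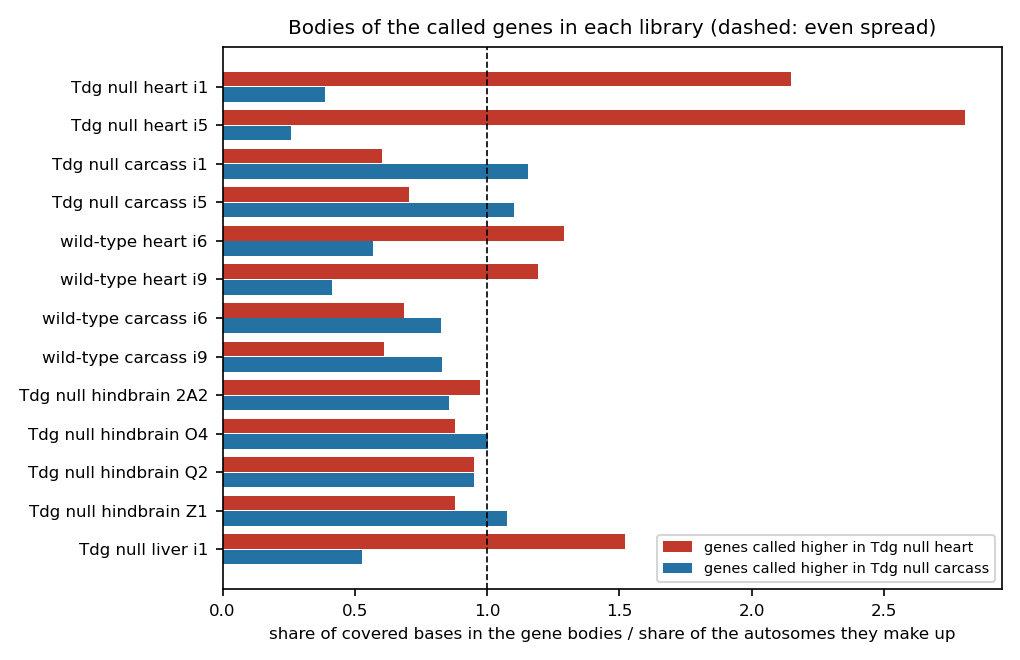
Share of covered bases that fell in the bodies of the 1926 heart genes (red) and 526 carcass genes (blue), divided by the share of the autosomes those bodies make up, in 13 libraries; the dashed line at 1 marks an even spread. The genes were chosen in the 4 libraries at the top, and the wild-type hearts reach 1.29 and 1.19 for the heart genes against 0.685 and 0.612 in the wild-type carcasses.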

How the data were processed

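5fC was enriched from tissue DNA with a cleavable aldehyde-reactive biotin probe and sequenced. Per the authors, reads were trimmed (trim_galore) and mapped with Bowtie2 at its defaults to the NCBIM37 build, mm9, and SeqMonk's MACS caller found the peaks of every library separately, with 1e-05 as p value cutoff and fragments taken as 200 bp. These deposited lists give start and end positions alone, another kind of value than a count or a level, on a grid of 100 bp. Use of an input library and removal of duplicates are not given in the sources used here. Peaks of different libraries depend on their depth and 5fC level, and read depth is unknown.

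Gene bodies were the protein-coding genes of the GENCODE annotation of NCBIM37. Covered bp per body were scaled to the mean covered length of the 4 libraries (157 Mb) and tested as log2(covered bp + 500) with limma 3.58.1 (R 4.3.3) with embryo as a block and eBayes with a trend, in genes with a mean of at least 1000 bp, with Benjamini-Hochberg adjustment. Pairing comes from the embryo labels; deviations of heart and carcass from i1 to i5 correlated at -0.00757 across genes. The fit was checked on simulated data. Genes named are the 12 largest called differences in each direction, up to 4 called members of each list (otherwise the most covered member) and the longest stretches; further members are named as examples after their values were seen. Members and lists were chosen with earlier results of these data known. The Tdg null liver of embryo i5 was not used here, and some genes are not reported here. Python 3.11.15, numpy 2.4.6 and pandas 2.3.3 did the rest, and figures were drawn with matplotlib 3.10.9.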

Additional observations from a re-analysis of the deposited data

Results flagged for a closer look

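In the 4 Tdg null hindbrains, 7 of 61 sets of 4 values had a library far from the others. Chance gives about 1 in 20 for untied values, a rate that does not hold where the other 3 values are tied, as at Nup214, Rrbp1, Gata3 and Col1a2. The share of the body under peaks was high in a single library at Myh7 (8.35% against 4.59% to 5.01%), Nup214 (0.503% against 0%), Rrbp1 (0.579% against 0%), Col1a2 (5.72% against 3.54%) and Gata3 (2.12% against 0%). It was low in a single library at Mccc1 (0% against 1.69% to 1.93%) and Sema3d (2.53% against 3.31% to 3.45%). At Dcc, both Tdg null embryos had more coverage in carcass, while relative to library coverage both wild-type hearts lay above the wild-type carcass of the same embryo, by a mean of 0.72 on the log2 scale. This rests on very little coverage, 0.0824% and 0.0366% of the body in the wild-type hearts. Among the 59 genes chosen by rule for naming, 2 had a peak in all 4 wild-type libraries. The other, Flt1, had the direction of the Tdg null embryos, with relative coverage of 8.40 and 8.06 in the wild-type hearts against 2.39 and 2.23 in the carcasses. Tbx5, named as a further member, also had a peak in all 4. Peaks covered 0.989% and 1.58% of its body in the wild-type hearts and 3.17% and 1.98% in the carcasses. Relative to library coverage both hearts lay above both carcasses there. The difference between genotypes was not tested.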

How the results depend on the processing

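No gene called in one direction was called in the other under any alternative; the fitted sign turned in 9 heart and 13 carcass genes with 10 kb added on both sides, in 3 heart genes with peaks of at least 600 bp and in 2 with thinned peaks. Counts are given as higher in heart and higher in carcass, beside 1926 and 526. They were 0 and 0 with no scaling (916 genes at an unadjusted p under 0.05, limma; 954 and 317 by fold alone), 927 and 965 with quantile normalization, 932 and 1103 with median centring, 931 and 293 with 2000 bp added, 932 and 315 with a minimum of 3000 bp, 1026 and 328 with peaks thinned to equal number, and 3262 and 1180 by adjusted p alone. Among genes with a peak in both tissues, an alternative added after the data were seen, they were 1679 and 485. Without the replicate block for embryo they were 1925 and 526. They rose to 2761 and 730 with 10 kb added on both sides, of which 1407 and 402 were also called in the main fit. With no minimum coverage they were 2639 and 735, with 200 bp added 2041 and 578, and with peaks of at least 600 bp 1798 and 604. Leaving out a library, with the lone library of that tissue assumed to vary like the other tissue and no embryo term, gave 259 to 1565 and 55 to 701, and leaving out an embryo 2575 to 3101 and 687 to 1295 with no test. Heart-only and carcass-only stretches fell to 6270 and 9045 at a minimum of 1000 bp and to 25929 and 29756 with thinned peaks, and without a library ranged from 44768 to 102150 and from 50729 to 84916. Of 852 alternative values of the 58 named genes that were called, 661 kept the full call, 24 kept the adjusted p but fell under the 2-fold rule (14 of them with 2000 bp added) and 167 kept direction only. Without read counts, a gene with no peak has an unknown level below the caller's threshold.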
